A study of Mus musculus with 6 samples.

Results

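The nectin-binding receptors of T cells described here are *Tigit*, *Cd226*, *Cd96*, *Pvrig* and *Crtam*, 5 genes chosen by name for their ligand family, of 25812 genes with a value in every library. The choice was made with earlier results of these data known. Of these 5, *Tigit*, *Cd226*, *Cd96* and *Crtam* had a single-gene value in all 6 libraries and were among the 10341 genes tested, while *Pvrig* had no such value. RNA was sequenced from splenic T follicular helper (Tfh) cells, the CD4+ T cells that help B cells in germinal centers. The sort took CD3+CD4+ cells that were positive for CXCR5 and PD-1 and negative for B220 and GFP, on day 7 after intraperitoneal immunization with 100 µg of NP-CGG, a hapten-carrier antigen, in complete Freund's adjuvant. The comparison asks what the loss of Bob1, the octamer-binding coactivator encoded by *Pou2af1*, does to the transcripts of these receptors.

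Of the 6 libraries, 3 came from FoxP3GFP/DTR CD4Cre/+Bob1fl/fl mice (Bob1KO below) and 3 from control FoxP3GFP/DTR CD4+/+Bob1fl/fl mice (WT below). Both groups carried the floxed *Pou2af1* alleles and the FoxP3GFP/DTR allele, so that FoxP3+ cells bore GFP and were gated out, and both received the same immunization. The Cre was driven by the *Cd4* promoter, so that the allele was open to deletion in every T cell lineage that passes through a CD4+ stage and not in Tfh cells alone. The controls lacked Cre. Each experiment used several mice per genotype, which the methods describe as littermates matched for age and sex, and how the mice of an experiment were divided into libraries was not stated. The values are FPKM, fragment numbers scaled to the length of the transcript and to the total of the library.

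TIGIT, CD226 and CD96 compete on T cells and NK cells for CD155, encoded by *Pvr*, and for members of the nectin family on the cells they meet. TIGIT carries an inhibitory motif in its tail and CD226 is activating, so that the balance between them sets the response to the same ligand. PVRIG is a further inhibitory receptor, which binds nectin-2, and CRTAM binds the nectin-like molecule encoded by *Cadm1* on activated T cells. TIGIT is known as a receptor of Tfh cells and of regulatory T cells.

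By GENCODE M21 on GRCm38, *Tigit* (ENSMUSG00000071552.5) lies on the minus strand of chromosome 16 from 43648867 to 43664146 and has 4 exons. *Cd96* lies on the same strand, 2.37 Mb away, from 46035657 to 46120251 with 15 exons. *Crtam* lies on the minus strand of chromosome 9 from 40969691 to 41004628 with 10 exons, and *Pvrig* on the plus strand of chromosome 5 from 138341961 to 138343557 with 5 exons. *Crtam* shares its chromosome with the targeted gene, *Pou2af1*, 10.2 Mb away. In each of the 6 libraries the assembled *Tigit* row began 0 to 36 bases upstream of the RefSeq start.

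The sequences upstream of *Tigit* and *Cd96* are shown because Bob1 acts through DNA elements of promoters and because these were the most abundant receptors. They are the 250 bases before the start as given by RefSeq on GRCm38.p6, 5′ to 3′ on the minus strand, from chr16:43664185-43664434 and chr16:46120249-46120498. Capitals mark the motif found, GGAAAA (here as its reverse complement) for *Tigit* and TATAAA for *Cd96*.
Tigit: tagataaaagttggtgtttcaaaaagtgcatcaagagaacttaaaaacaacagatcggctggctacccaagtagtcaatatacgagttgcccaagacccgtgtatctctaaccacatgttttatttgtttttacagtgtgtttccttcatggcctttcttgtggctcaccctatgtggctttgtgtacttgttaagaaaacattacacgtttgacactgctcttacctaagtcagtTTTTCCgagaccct
Cd96: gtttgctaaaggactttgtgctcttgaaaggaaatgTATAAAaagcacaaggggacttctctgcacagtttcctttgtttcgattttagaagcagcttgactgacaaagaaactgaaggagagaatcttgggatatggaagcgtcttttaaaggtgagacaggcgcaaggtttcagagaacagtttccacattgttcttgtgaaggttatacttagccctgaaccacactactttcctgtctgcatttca

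Promoters of 3 of the 5 receptors, *Tigit*, *Cd96* and *Pvrig*, were in the RefSeq table. Each 250-base window was searched on both strands for the octamer ATGCAAAT, for TGANTCA, the form bound by AP-1, for GGAAAA, the core bound by NFAT, and for TATAAA. None of the 3 windows held the octamer, which occurred in 1.74% of 32851 promoters, or TGANTCA, which occurred in 7.81%. GGAAAA was found in *Tigit*, 14 to 9 bases before the start, and in 23.4% of all promoters. TATAAA was found in *Cd96*, 214 to 209 bases before the start, and in 13.6% of all promoters. A match describes these letters and is not evidence of binding, and the windows show nothing of elements outside them.

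*Pou2af1* followed the labels, with 32.5 to 46.1 FPKM in WT libraries and 0.237 to 1.16 FPKM in Bob1KO libraries. The defining Tfh genes *Cd4*, *Cd3e*, *Cxcr5*, *Pdcd1*, *Bcl6*, *Icos*, *Il21*, *Sh2d1a* and *Tox2* were all present, and *Foxp3* was listed at 0 in all 6 libraries. Libraries of the same genotype differed in other transcripts. The summed FPKM of the 6 myeloid markers with a value was 414 to 730 in WT libraries, and 3484, 61.0 and 987 in Bob1KO replicates 1, 2 and 3, almost all of it *S100a8* and *S100a9*. The Y-linked genes *Ddx3y* and *Kdm5d* were listed at 0 in all libraries but both replicate 2 libraries. Over all 10341 genes, limma called 2 at an adjusted P of 0.05 (0.0193%), *Pcsk1* higher and *Pou2af1* lower in Bob1KO libraries, and 542 at an unadjusted P of 0.05 (5.24%).

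None of the 4 receptors tested passed the adjusted P between Bob1KO and WT Tfh cells, against 0.0193% of all genes. *Tigit* alone passed an unadjusted P of 0.05 among the 4, against 5.24% of all genes, 3.13% of them higher in Bob1KO libraries. *Cd226* and *Cd96* were centered near no difference, and *Crtam* had a small positive difference with an interval that includes 0. The plot of receptor FPKM by library shows these values, and the plot of estimates gives the intervals.

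**Figure D1:**
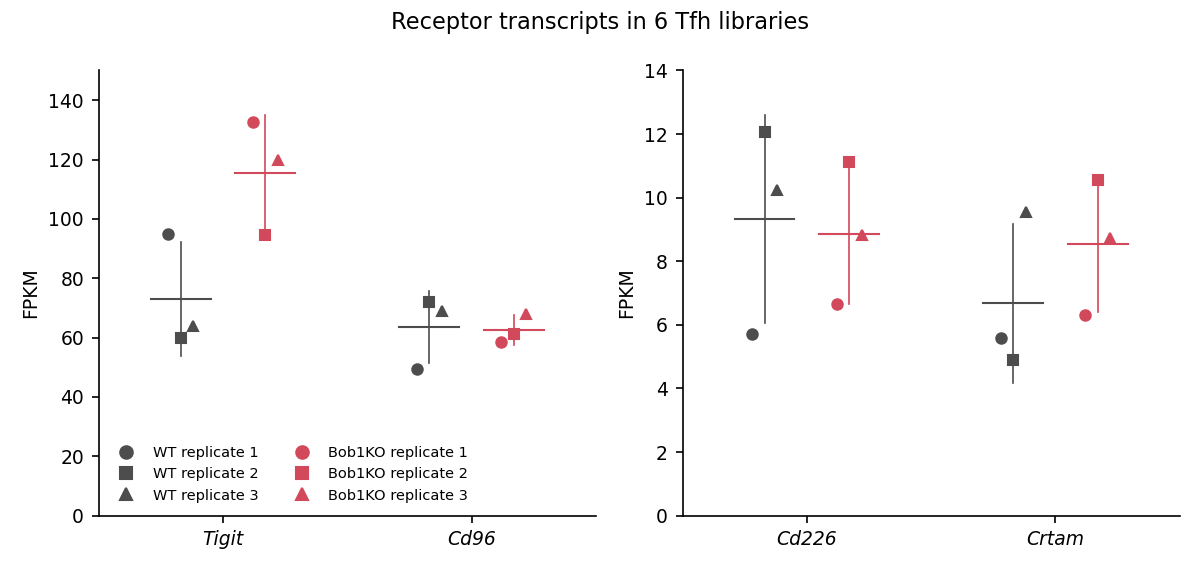
FPKM of 4 receptors (y axes, with separate ranges for the abundant *Tigit* and *Cd96* and the scarcer *Cd226* and *Crtam*) in 3 WT and 3 Bob1KO Tfh libraries, a symbol per library, with the mean (horizontal line) and SD (vertical line) of each group. *Tigit* runs from 59.9 to 95.1 in WT and from 94.4 to 133 in Bob1KO libraries, and the groups of the other 3 receptors overlap widely.

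*Tigit* had 95.1, 59.9 and 63.9 FPKM in WT replicates 1, 2 and 3, a mean of 73.0 ± 19.3 (SD, n = 3). In Bob1KO replicates 1, 2 and 3 it had 133, 94.4 and 120 FPKM, a mean of 116 ± 19.4 (SD, n = 3). The groups overlapped in 1 place, since WT replicate 1 stood just above Bob1KO replicate 2, and the deposited bounds of these libraries, 90.0 to 100.1 and 90.0 to 98.9 FPKM, overlapped as well. In WT replicate 1 a second, shorter row inside the *Tigit* gene held 2.72 FPKM. It shared 0.454 of its joint length with the gene, under the 0.5 required, and was not added. The ratio of the group means of *Tigit* was 1.58. On the log2(FPKM + 1) scale the difference was 0.67 (SE 0.209, 95% interval 0.18 to 1.17), with an unadjusted P of 0.0146 and an adjusted P of 0.866 in limma, and 172 of the 10341 genes had a P as small or smaller. The exact two-sided permutation test gave P = 0.2 for *Tigit*, where 3 libraries against 3 cannot go below 0.1. The authors' group FPKM for *Tigit*, made on 1 common assembly, were 89.3 for WT and 141 for Bob1KO.

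In bulk RNA, more cells that carry a transcript and more of it per cell cannot be told apart. Libraries that stood apart in other transcripts were left out in turn, 1 of these settings having been chosen after the data were seen. Without both replicate 1 libraries, which removes the library with most myeloid transcripts, the *Tigit* difference was 0.77 on the log2 scale. Without both replicate 2 libraries, the only ones with Y-linked transcripts, it was 0.69. With any 1 library left out it lay between 0.55 and 0.88, and no adjusted P passed 0.05. The unadjusted P of *Tigit* was 0.0524 without WT replicate 2 and 0.0521 without WT replicate 3, and so no longer under 0.05.

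**Figure D2:**
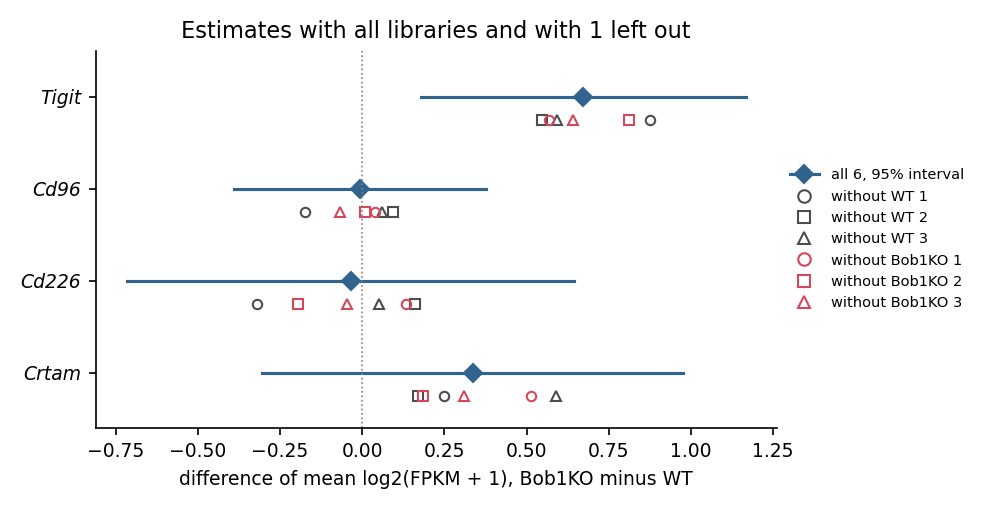
Difference of mean log2(FPKM + 1), Bob1KO minus WT (x axis), for each receptor with all 6 libraries (diamond, with the 95% interval from limma as a line) and with 1 library left out (open symbols). The *Tigit* estimates run from 0.55 to 0.88, all above 0, while those of *Cd96* and *Cd226* lie on both sides of 0.

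*Tigit* and the Tfh marker genes moved together between libraries of 1 genotype, and this was examined after the data were seen. The mean log2(FPKM + 1) of the 9 Tfh markers was 8.10, 7.51 and 7.42 in the WT libraries and 7.93, 7.53 and 7.76 in the Bob1KO libraries, so that WT replicate 1 had the highest of all. Relative to this mean, *Tigit* stood at -1.51, -1.59 and -1.40 in WT libraries and at -0.87, -0.96 and -0.84 in Bob1KO libraries. The spread within each group was then small (SD 0.09 for WT and 0.06 for Bob1KO, n = 3), and the groups did not overlap. The difference was 0.61, with an exact permutation P of 0.1, which is the smallest that 3 against 3 can give. This scale was taken up after the data were seen, so its small spread and its P are a description. On the scale planned beforehand, log2(FPKM + 1), the groups overlapped and the exact permutation P was 0.2. Over all genes tested, 2.1% were higher in Bob1KO libraries without overlap on this scale. The only marker of the 9 past an unadjusted P of 0.05, against 5.24% of all genes, was *Cd4*. It had 379, 357 and 299.9 FPKM in WT libraries and 466, 414 and 443 FPKM in Bob1KO libraries (log2 difference 0.36, unadjusted P = 0.0259, adjusted P = 0.935 in limma). The FPKM of *Cd4* did not overlap between the groups, as was the case for 5.82% of all genes in the same direction. The marker mean is itself built from genes whose values vary between libraries.

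**Figure D3:**
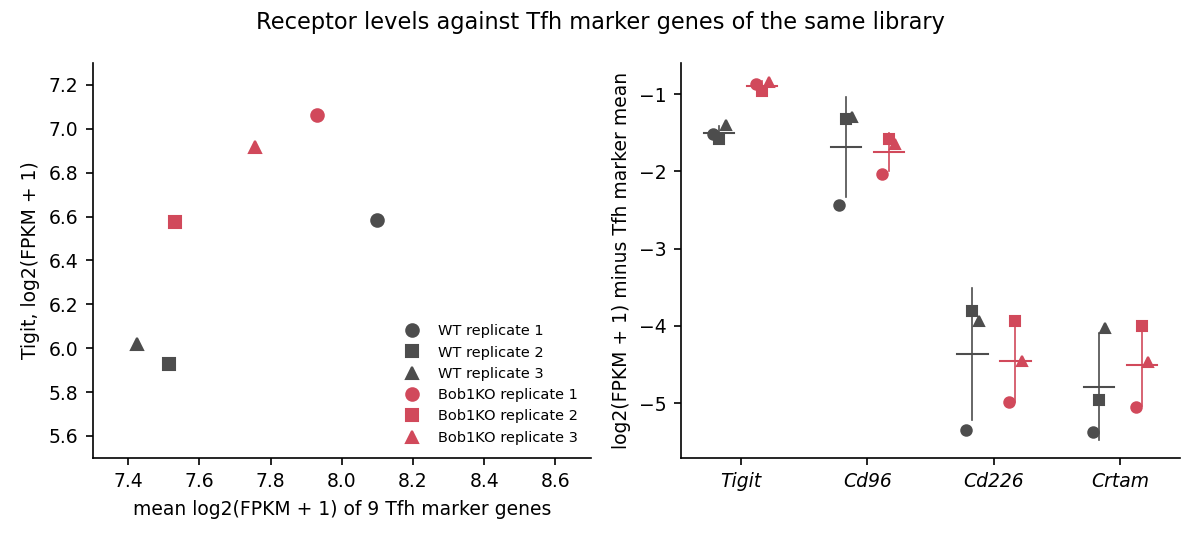
Left, *Tigit* (y axis) against the mean of 9 Tfh marker genes (x axis), both as log2(FPKM + 1), a symbol per library. Right, each receptor minus that mean (y axis, log2 scale), with group means and SD as lines; *Tigit* lies from -1.59 to -1.40 in WT and from -0.96 to -0.84 in Bob1KO libraries, whereas the groups overlap for *Cd96*, *Cd226* and *Crtam*.

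*Cd226*, the activating receptor of this family, lies on the plus strand of chromosome 18 from 89176967 to 89272229 and has 7 exons. It had 5.70, 12.1 and 10.2 FPKM in WT libraries, a mean of 9.33 ± 3.28 (SD, n = 3). It had 6.66, 11.1 and 8.84 FPKM in Bob1KO libraries, a mean of 8.87 ± 2.22 (SD, n = 3). Both replicate 1 libraries were the lowest of their group, and the Bob1KO values lay within the WT range. The difference was -0.04 on the log2(FPKM + 1) scale (SE 0.288, 95% interval -0.72 to 0.65), with an adjusted P of 0.997 in limma. The bounds of this interval are close in size to the 0.67 estimated for *Tigit*, so a difference nearly as large in either direction lies within it.

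*Cd96*, the third receptor for CD155, had 49.6, 72.1 and 69.0 FPKM in WT libraries and 58.5, 61.1 and 68.1 FPKM in Bob1KO libraries. The means were 63.6 ± 12.2 and 62.6 ± 4.95 (SD, n = 3 each), and every Bob1KO value lay within the WT range. On the log2(FPKM + 1) scale the difference was -0.0067 (SE 0.162, 95% interval -0.39 to 0.38), with an adjusted P of 0.999 in limma. This was the narrowest interval among the 4 receptors, and it does not reach the 0.67 estimated for *Tigit*. The interval of *Tigit*, 0.18 to 1.17, overlaps it, and the log2 ratio of *Tigit* to *Cd96* gave an exact permutation P of 0.3 between the groups.

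*Crtam*, a receptor that appears on T cells after activation, had 5.59, 4.90 and 9.54 FPKM in WT libraries and 6.32, 10.6 and 8.73 FPKM in Bob1KO libraries. The groups overlapped, with WT replicate 3 above both Bob1KO replicates 1 and 3. The difference on the log2(FPKM + 1) scale was 0.34 (SE 0.271, 95% interval -0.30 to 0.98), with an adjusted P of 0.944 in limma. With 1 library left out it ran from 0.17 to 0.59, with unadjusted P from 0.0464 to 0.58 in limma. The largest difference and the smallest P were those without WT replicate 3, where the adjusted P was 0.999. Exact permutation tests of the other receptors gave P = 1 for *Cd226*, 0.9 for *Cd96* and 0.3 for *Crtam*.

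*Pvrig*, an inhibitory receptor, could be given only as rows of the assembly. In WT replicates 1 and 2 and Bob1KO replicates 1 and 3, the row over *Pvrig* ran for 16773 to 49279 bases, well past the gene, and held 3.48, 2.56, 1.91 and 1.99 FPKM in that order. In WT replicate 3 and Bob1KO replicate 2, shorter rows of 1476 and 2001 bases held 0.966 and 1.195 FPKM. These rows do not measure the same transcript, so *Pvrig* was not compared between the groups, and its rows were low in each library.

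Within a library, the receptors fell into an abundant pair, *Tigit* and *Cd96*, and a scarce pair, *Cd226* and *Crtam*. The lowest FPKM of the first pair in any library was 4.11 times the highest of the second. The order of neighbours was read from these same 6 libraries, of both groups, so no P is given for it. *Cd96* stood above *Cd226* in 6 of 6 libraries. *Cd226* stood above *Crtam* in 6 of 6 libraries as well, though by a mean of only 0.23 ± 0.45 on the log2 scale (SD, n = 6). Only WT replicate 2 set *Cd226* and *Crtam* clearly apart, at 12.1 and 4.90 FPKM. In every other library their deposited confidence bounds overlapped, so the order of *Cd226* and *Crtam* was not resolved there. *Tigit* and *Cd96* had no fixed order, with *Tigit* above *Cd96* in 1 of 3 WT libraries and in 3 of 3 Bob1KO libraries. Within a library, *Tigit* exceeded 89.6% of the genes tested and *Crtam* 32.8%, each as a mean over the 6 libraries.

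The balance of *Tigit* against the receptors that share its ligands was a single value per library. *Tigit* had 16.7, 4.97 and 6.24 times the FPKM of *Cd226* in WT libraries and 19.9, 8.50 and 13.5 times in Bob1KO libraries. The ratio of *Tigit* to *Cd96* was 1.92, 0.831 and 0.926 in WT libraries and 2.27, 1.54 and 1.76 in Bob1KO libraries. In both ratios WT replicate 1 lay among the Bob1KO libraries and the other WT libraries lay below all of them.

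The log2 ratio of *Tigit* to *Cd226* differed by 0.71 between the groups, and that of *Tigit* to *Cd96* by 0.68 (exact permutation P = 0.3 for each). *Tigit* took 61.0%, 40.2% and 41.9% of the summed FPKM of the 4 receptors in WT libraries and 65.0%, 53.3% and 58.3% in Bob1KO libraries, a difference of 11.2 percentage points (exact permutation P = 0.3). None of these tests separated the groups, and 3 libraries against 3 cannot give a P below 0.1. The ratios carry the variation of both genes, and within each group *Cd226* was lowest where *Tigit* was highest, in replicate 1.

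**Figure D4:**
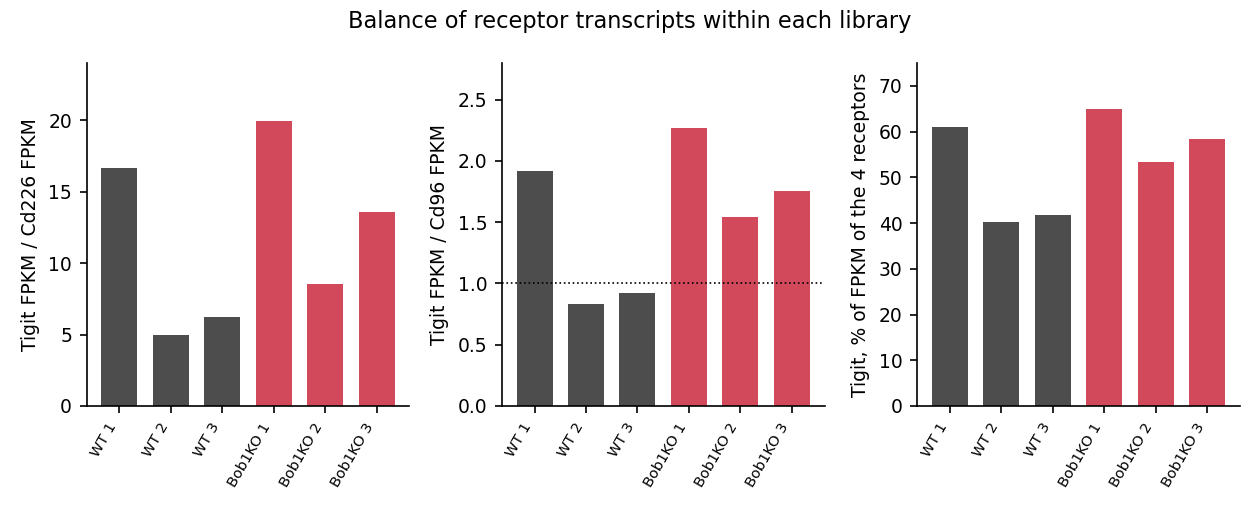
Bars give, for each of the 6 libraries, the ratio of *Tigit* to *Cd226* FPKM, the ratio of *Tigit* to *Cd96* FPKM (dotted line, equal levels) and the percentage of the FPKM of the 4 receptors that *Tigit* holds. WT replicate 1 lies among the Bob1KO libraries in each panel, and WT replicates 2 and 3 lie below all Bob1KO libraries.

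Among the 6 pairs of receptors, *Cd226* and *Cd96* had the strongest correlation of the values as they stood over the 6 libraries, with Pearson's r = 0.84 (exact permutation P = 0.0333, Benjamini-Hochberg 0.2) and Spearman's rho = 0.83 (exact permutation P = 0.0583, Benjamini-Hochberg 0.272). Without the 2 libraries farthest from the median of *Cd226*, r was 0.06, so the relation rests on those libraries. *Tigit* and *Cd226* ran in opposite directions, with r = -0.63 (exact permutation P = 0.182, Benjamini-Hochberg 0.546) and rho = -0.77 (exact permutation P = 0.103, Benjamini-Hochberg 0.272), and r was -0.19 without the 2 libraries farthest from the median of *Tigit*. With the mean of its group subtracted from each value, r was -0.98 for this pair, the largest in size of the 6 pairs, and 0.84 for *Cd226* and *Cd96*, which is given without a test.

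The genes with the pattern most like that of *Tigit* over the 6 libraries, ranked by Pearson's r on log2(FPKM + 1) among 5745 genes with an SD of at least 0.2, were *Gna14*, a G protein alpha subunit, with r of 0.999, then *Ispd*, *Slc37a2*, *Snx33* and *Galnt2*, with r of 0.991 to 0.994. *Gna14* had 3.15 ± 1.41 FPKM in WT and 6.26 ± 1.32 in Bob1KO libraries (SD, n = 3 each), and *Ispd* 12.0 ± 7.36 and 27.9 ± 6.91. For *Cd226* the nearest were *Irs2*, *Wdr12* and *Txk*, a Tec family kinase of T cells, with r of 0.967 to 0.987. For *Cd96* they were *2610019F03Rik*, *Gm12250* and *Fam60a*, with r of 0.987 to 0.992, and for *Crtam* they were *Ccdc141*, *Gm3500* and *Sbsn*, with r of 0.960 to 0.983. These are the highest correlations among all genes ranked, over 6 points, and are given as a description, without a test.

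Of the 9 ligand genes, only *Pvr*, which encodes CD155, was expressed above a mean of 1 FPKM in the sorted cells. It had 15.0, 14.2 and 12.9 FPKM in WT libraries and 12.8, 13.01 and 13.8 FPKM in Bob1KO libraries. The groups overlapped, and the difference was -0.08 on the log2(FPKM + 1) scale (SE 0.118, adjusted P = 0.961 in limma). *Pvr* was present in the same RNA as 3 of its receptors, at a level above *Crtam* in every library. The nectin genes *Pvrl1*, *Pvrl2*, *Pvrl3* and *Pvrl4* and the nectin-like genes *Cadm1* and *Cadm4* had at most 0.376 FPKM in any library, and *Cadm2* and *Cadm3* were listed at 0 in all of them. *Pvrl2*, the gene of nectin-2, lies 0.153 Mb from *Pvr* on chromosome 7 and had 0, 0.187 and 0.252 FPKM in WT libraries and 0.376, 0.0408 and 0.114 FPKM in Bob1KO libraries.

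Of 17 genes for proteins that carry the signals of these receptors inside the cell, 15 were tested, *Mllt4* lay under the filter and *Lck* had no value. None passed an adjusted or an unadjusted P of 0.05, against 0.0193% and 5.24% of all genes, 7 differences were positive and 8 negative, and their median was -0.01 on the log2 scale, beside -0.0031 over all genes tested. The smallest unadjusted P values in limma were those of *Ptpn11* (0.0774), *Grb2* (0.104), *Lcp2* (0.207) and *Plcg1* (0.233). *Ptpn11*, the phosphatase SHP-2, had 44.4, 40.2 and 54.2 FPKM in WT libraries and 44.1, 31.0 and 32.6 FPKM in Bob1KO libraries. *Grb2*, an adaptor that binds the tail of TIGIT, had 88.1, 93.2 and 94.7 FPKM in WT libraries and 83.8, 82.7 and 77.0 FPKM in Bob1KO libraries, which do not overlap, as was the case for 4.87% of all genes in the same direction.

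Among 15 other inhibitory receptors of T cells, 10 were tested and *4632428N05Rik* had no value. None passed the adjusted P, 1 passed an unadjusted P of 0.05, against 0.0193% and 5.24% of all genes, and 8 differences were positive and 2 negative, where 5103 of the 10341 genes tested had a positive one. The median was 0.12 on the log2 scale, but with 1 library left out it lay between 0.01, without WT replicate 3, and 0.21, without WT replicate 1, and it was 0.02 without Bob1KO replicate 1. The gene with an unadjusted P under 0.05 was *Lag3*, a receptor for MHC class II, at 9.42, 6.81 and 7.09 FPKM in WT libraries and 17.1, 12.2 and 8.72 FPKM in Bob1KO libraries (log2 difference 0.61, SE 0.248, unadjusted P = 0.0443, adjusted P = 0.936 in limma). Bob1KO replicate 3 lay below WT replicate 1, so the *Lag3* groups overlapped as those of *Tigit* did. *Cd160*, a receptor for HVEM, had 41.6, 36.1 and 23.4 FPKM in WT libraries and 18.0, 36.6 and 14.5 FPKM in Bob1KO libraries, a difference of -0.60 (SE 0.358, adjusted P = 0.944). *Sit1* and *Cd200r1* had the next smallest P values, with differences of -0.21 and 0.16.

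**Figure D5:**
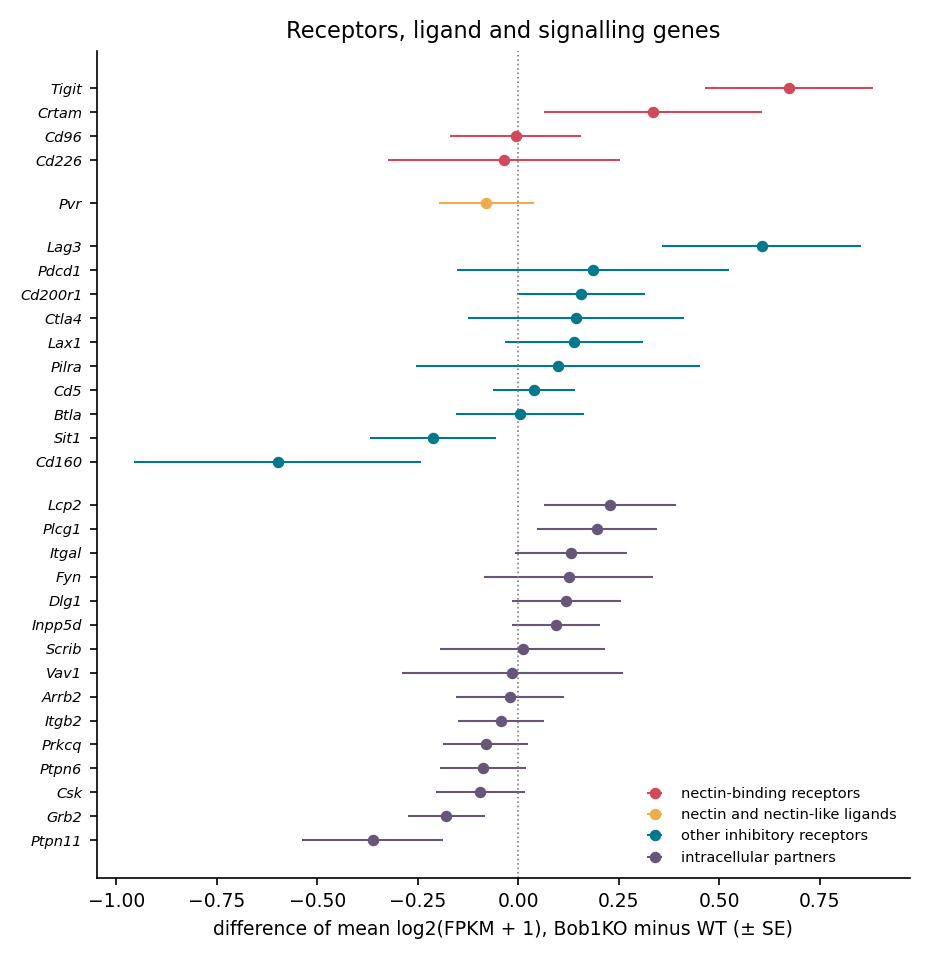
Difference of mean log2(FPKM + 1), Bob1KO minus WT (x axis), with its SE from limma, for the 4 receptors tested, the only ligand tested, 10 other inhibitory receptors and 15 intracellular partners (rows). *Tigit* at 0.67 and *Lag3* at 0.61 are the highest of these genes, and *Cd160* at -0.60 is the lowest.

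Cells other than Tfh cells that use these receptors were looked for by their markers. Of 11 NK and CD8 T cell markers, *Cd8a* had at most 0.139 FPKM and *Ncr1* at most 0.290 FPKM in any library, whereas *Klrb1c* had 7.89 to 12.2, *Cd8b1* 3.44 to 5.995, *Eomes* 4.04 to 13.1 and *Gzma* 2.34 to 7.44 FPKM. The summed FPKM of the list, most of it *Nkg7*, was 109, 140 and 164 in WT libraries and 127, 149 and 101 in Bob1KO libraries, and its part in the *Tigit* values was not tested. Of the 7 genes of this list that were tested, none passed the adjusted P, against 0.0193% of all genes. An unadjusted P of 0.05 was passed by 1, against 5.24% of all genes. It was *Prf1*, the gene of perforin, with 2.78, 2.56 and 3.06 FPKM in WT libraries and 0.907, 1.84 and 1.16 FPKM in Bob1KO libraries (log2 difference -0.74, unadjusted P = 0.0116, adjusted P = 0.835 in limma). The *Prf1* groups did not overlap, as was the case for 4.87% of all genes in the same direction. Of 7 genes of regulatory T cells, which are rich in *Tigit*, *Foxp3* was listed at 0 in each library and the summed FPKM was 97.9 to 143 in WT and 117 to 125 in Bob1KO libraries, most of it *Ikzf2* and *Nrp1*. Of the 5 genes of this list that were tested, none passed the adjusted P, against 0.0193% of all genes. An unadjusted P of 0.05 was passed by 2 of them, in opposite directions, against 5.24% of all genes. *Nrp1* had 32.9, 39.8 and 30.9 FPKM in WT libraries and 43.5, 43.3 and 42.4 FPKM in Bob1KO libraries (log2 difference 0.32, unadjusted P = 0.0356, adjusted P = 0.935 in limma). *Gpr83* had 6.79, 6.02 and 7.38 FPKM in WT libraries and 3.57, 3.58 and 3.53 FPKM in Bob1KO libraries (log2 difference -0.76, unadjusted P = 0.00129, adjusted P = 0.391 in limma). The groups of both genes did not overlap, as was the case for 5.82% of all genes in the direction of *Nrp1* and 4.87% in that of *Gpr83*, and the part of either in the *Tigit* values was not tested. The 6 B cell markers summed to 23.0 to 39.1 FPKM in WT and 27.2 to 52.4 in Bob1KO libraries, most of it *Cd22*, with *Pax5* at most 0.197 FPKM. The 7 markers of dendritic cells and stroma, cells that carry the ligands, summed to at most 1.99 FPKM.

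The deposited confidence bounds of a library lay within 4.62% to 5.76% of the value for *Tigit*, 3.21% to 4.91% for *Cd96*, 7.50% to 11.4% for *Cd226* and 9.15% to 14.5% for *Crtam*. The coefficients of variation between libraries of 1 group were larger, 26.4% and 16.8% for *Tigit* in WT and Bob1KO libraries and 35.1% and 25.1% for *Cd226*. The bounds cover the estimate within a library only, and the spread between the 3 libraries of a group was the wider of both for these receptors.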

How the data were processed

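RNA of sorted splenic Tfh cells was made into 6 libraries, 3 per genotype. Reads were trimmed (cutadapt 1.2.1) and aligned to the GRCm38 (mm10) genome (TopHat2 2.0.13) by the authors, and the deposited FPKM with their confidence bounds were estimated by Cufflinks 2.2.1, on transcripts assembled in each library alone, as the submitters' processing notes and the file headers give it. No annotation version is given in the sources used. A further deposited table holds an FPKM per group on a common assembly. Its fold changes, test statistics, p-values and q-values are the authors' own comparison and were not used.

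Rows named by the assembly held 94.07% to 95.92% of the FPKM of a library, so genes were attached by position. A row was given to a gene where they shared at least 0.5 of their joint length, and in a second round where it covered at least 0.95 of a gene still without a row. Between 91.5% and 92.3% of the FPKM was assigned. Rows that bore the name of a placed gene kept that name. As a check, 98.7% to 98.8% of rows with a gene name also reached the threshold for that gene by position. For 3351 genes the position was that of the named row itself, so their rows match by construction. Joined gene names in the authors' table were split into genes after a first fit had been seen, which left the values of the receptors as they were.

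The test was limma (version 3.58.1, R 4.3.3) on log2(FPKM + 1) for all genes whose mean FPKM reached 1, a scale that understates the change of low genes, with a variance trend, no term besides the group, and Benjamini-Hochberg adjustment over all genes tested. Permutation tests are exact and two-sided. Python 3.11.15 with pandas 2.3.3 was used for the tables, and the fit was tested on simulated data.

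The files hold no counts, and the depth of a library is unknown. The numbers of fragments implied by the bounds were whole within 0.05 for only 47.0% to 48.1% of low rows, so no count model was used. The study describes the specimens as taken in 3 experiments per genotype, but the labels do not tie a library to an experiment, so p-values measure only the spread between these samples. The receptors and gene lists were chosen with earlier results of these data known. The genes named are the receptors, ligands with a value above 0, the 4 partners and the 4 inhibitory receptors with the smallest unadjusted P, the defining cell type markers, and the nearest 5 genes to *Tigit* and 3 to each other receptor by Pearson's r. *Pcsk1*, *Pou2af1*, *Ddx3y* and *Kdm5d* were named after their values were seen. Alternatives were other pseudocounts, filters, scalings, a fit with no variance trend, a stricter match, a replicate block, and libraries left out.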

Additional observations from a re-analysis of the deposited data

How the results depend on the processing

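In none of the alternatives did a receptor pass an adjusted P of 0.05. The *Tigit* difference (0.67 on the log2 scale) and the *Crtam* difference (0.34) stayed positive in all of them, with adjusted P from 0.396 to 0.999 for *Tigit* and from 0.851 to 0.999 for *Crtam*, and *Crtam* ran from 0.018 to 0.59. Estimates near 0 changed sign. *Cd226* (-0.04) was 0.00081 with FPKM scaled to the same total over assigned genes and 0.0013 without both replicate 2 libraries. *Cd96* (-0.0067) was 0.044 with quantile normalization, 0.032 with the same total and 0.11 without both replicate 2 libraries. With 1 library left out, *Cd226* ran from -0.32 to 0.16 and *Cd96* from -0.17 to 0.092, and the median of the intracellular partners from -0.037 to 0.041, while that of the other inhibitory receptors ran from 0.01 to 0.21. The log2 ratio of *Tigit* to *Cd226* then ran from 0.39 to 1.198 and that to *Cd96* from 0.46 to 1.05. Genes past the adjusted P numbered 2, and 1 with a pseudocount of 0.1, with a filter at a mean FPKM of 5 or with the replicate block, 6 without both replicate 1 libraries, and 2 to 7 with 1 library left out. The count was 4 without WT replicate 3 and 7 without WT replicate 1. Genes past an unadjusted P numbered 542, and 848 with no filter on low values. With the replicate number as a block, the *Tigit* difference was 0.67 (SE 0.124, unadjusted P = 0.00285, adjusted P = 0.411 in limma), and the block changed no call of a receptor. The labels share only a number between groups. The Y-linked genes *Ddx3y* and *Kdm5d* were above 0 in both replicate 2 libraries and in no other. Whether libraries of the same number came from the same experiment is not stated. Deviations from the group means correlated at 0.0945, 0.128 and 0.101 between libraries of the same number and below 0 between all others, so each library correlated best with its own number, as a hint from the data and not from the design. Deviations sum to 0 within a group, so values above 0 at the shared numbers push the others below 0 on average. The block moved the count of unadjusted calls to 625. *Tigit* was higher in the Bob1KO library at each of the 3 numbers, by 1.39, 1.58 and 1.87 times, as was the case for 14.9% of all genes, and 3 pairs allow no exact P under 0.25. The cause of these changes was not tested. What limits the report is the spread among 3 libraries per group, since the counting error of *Tigit* and *Cd96* was smaller, and the *Pvrig* locus could not be measured in these assemblies.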
